A study of Mus musculus with 22 samples.

Results

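Interleukins and interleukin receptors were examined in nuclei of neurons and glia from the mouse hippocampus 24 h after kainate, injected on the other side of the brain, had set off a status epilepticus. The genes were chosen by name and biotype: every protein-coding gene of GENCODE whose mouse symbol starts with Il and a digit, apart from Il6, Il6st and Il11. This rule also takes in Il4i1, an enzyme that breaks down amino acids. These were 79 of the 53379 genes counted, and 76 of them had enough counts to be tested, with Il13, Il1f10 and Il9 below the filter. Adult male C57/BL6N mice, bought at 8 weeks of age and kept for 4 weeks before use, received 70 nl of 20 mM kainate (an agonist of glutamate receptors that elicits seizures) or 0.9% NaCl (sham) above the right hippocampus. Only kainate mice that had convulsive seizures were kept. The left, contralateral hippocampi were frozen 24 h later and pooled, with 8 mice per treatment making 3 pools of 4 or 2 mice. Nuclei were stained for NeuN, a protein of neuronal nuclei, and sorted into NeuN+ (neurons) and NeuN- (glia and other cells) before mRNA sequencing. The 4 groups were kainate NeuN+ (n = 3), sham NeuN+ (n = 3), kainate NeuN- (n = 3) and sham NeuN- (n = 2, replicates 1 and 3). Each library is a pool, so every p-value measures the spread between pools and not between mice.

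Interleukins are secreted or nuclear proteins by which immune cells, glia and neurons signal to each other. Ligands of the IL-1 family bind a receptor chain that recruits an accessory chain (Il1rap for most of them, Il18rap for IL-18) and passes the signal through Myd88 and the Irak kinases. Most other interleukins act through paired chains coupled to Jak kinases and Stat factors, and IL-17 receptors act through the adaptor Traf3ip2. In the brain, IL-1beta is known for its release after seizures, IL-33 is a nuclear alarmin of astrocytes and oligodendrocytes, and IL-34 is a neuronal ligand of the microglial receptor Csf1r.

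Each library held 12058875 to 45428465 counts. In the marker check, the 6 neuronal markers were all higher in NeuN+ nuclei, and the 8 microglial, 6 astrocytic and 5 oligodendrocytic markers were all lower there (edgeR's quasi-likelihood test, adjusted p below 0.25). Kainate NeuN- replicate 2 and sham NeuN- replicate 1 had the lowest RNA input (about 0.05 ng, amplified over 15 PCR cycles), against 1 ng and 10 cycles for the other 9 libraries. The 1134 olfactory receptor genes served as a yardstick for low counts in genes with no known role in the hippocampus. Their summed normalised CPM (counts scaled to a common library total after TMM normalisation) ranged from 345 in sham NeuN+ replicate 1 to 2319 in kainate NeuN- replicate 3, and the replicate 1 library was the lowest of its group in all 4 groups. RNA was taken from nuclei in bulk, so fewer cells of a type and less RNA per cell cannot be told apart.

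Most ligand genes had few counts, while several receptor genes were counted in every library. Per kilobase of exon, the 5 genes with the highest mean over all libraries were Il33, Il1rap, Il18, Il34 and Il17d. Of the 79 genes, 19 lay above the 95th percentile of the olfactory receptor genes in all 11 libraries, 39 did so in every library of at least 1 group, and 19 did so in no library. Mean CPM reached 10 in at least 1 group for 26 genes and stayed below 1 in every group for 14. Of those 14, 12 were ligands: Il3, Il5, Il9, Il13, Il17b, Il1f6, Il1f8, Il1f9, Il1f10, Il22, Il24 and Il31. The other 2 were the decoy receptors Il13ra2 and Il22ra2.

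**Figure D1:**
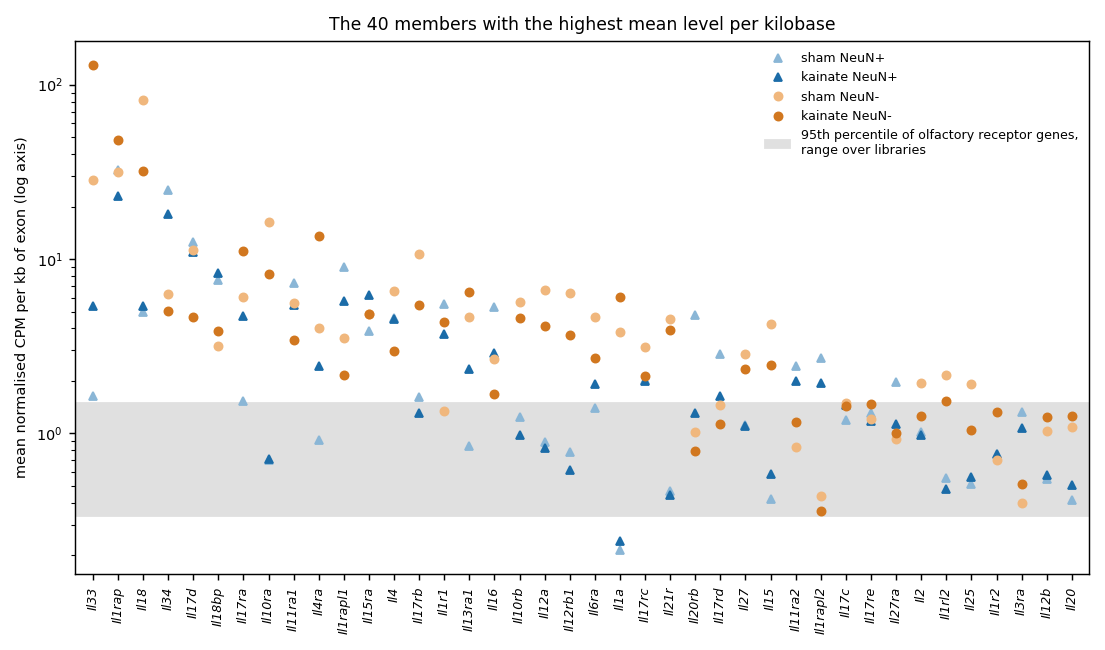
Mean normalised CPM per kilobase of exon (vertical log axis) of the 40 members with the highest mean level, for sham (light) and kainate (dark) libraries of NeuN+ nuclei (triangles) and NeuN- nuclei (circles). The grey band spans the 95th percentile of olfactory receptor genes over the 11 libraries, from 0.335 to 1.501, and Il33 is the highest member, at 129.6 in kainate NeuN- nuclei.

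The kainate comparison asked which of these genes differed between seizure-exposed and sham hippocampi in neurons and in glia. In both fractions the ligand Il33 and the receptor chains Il4ra and Il17ra had higher group means after kainate, and Il1r1 had a higher mean in glia and a lower one in neurons. Without the replicate number in the model, 0 of the 76 genes passed an adjusted p of 0.25 in neurons, where 0.165% of all 40714 genes tested did, and 0 passed in glia, where 0.101% did. At an unadjusted p below 0.05 there were 7 in neurons (2.09% of all genes) and 6 in glia (2.05%). With DESeq2's Wald test 4 passed in neurons (0.884% of all genes) and 4 in glia (0.624%). When the model also held the replicate number as a block per fraction, 5 were higher and 6 lower in neurons, against 3.19% and 1.9% of all genes, and 7 were higher and 6 lower in glia, against 2.93% and 2.86%. The blocked comparison in glia rests on the pairs numbered 1 and 3, since kainate NeuN- replicate 2 has no sham partner. The blocked fit left 3 residual degrees of freedom for a gene's own spread, beside 48 borrowed from the spread over all genes. Without the block these were 7 and 6.76. The blocked SEs and p-values, and the rises and falls called from them, thus rest mostly on spread shared between genes. The median log2 fold change of the 76 genes was -0.13 in neurons and 0.22 in glia with the block, beside -0.0010 and 0.11 over all genes. Without the block it was -0.071 and 0.033, beside -0.015 and 0.023.

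The promoters of Il33, Il4ra and Il1r1 are shown because these genes had the largest log2 fold changes in glia among members called with the block and with DESeq2. The sequences are RefSeq windows of GRCm38.p6, from 250 bases before to 50 after an annotated start, in the direction of the gene. Capitals mark a match to the NF-kappaB consensus on either strand.

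Il4ra chr7:125552021-125552320 (+ strand): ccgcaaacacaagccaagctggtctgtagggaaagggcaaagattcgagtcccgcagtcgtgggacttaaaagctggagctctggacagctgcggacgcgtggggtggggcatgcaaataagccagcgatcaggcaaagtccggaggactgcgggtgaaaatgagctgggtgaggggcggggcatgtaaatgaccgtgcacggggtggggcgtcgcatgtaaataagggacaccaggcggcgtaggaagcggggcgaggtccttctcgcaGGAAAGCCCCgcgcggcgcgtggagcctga

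Il1r1 chr1:40266336-40266635 (+ strand): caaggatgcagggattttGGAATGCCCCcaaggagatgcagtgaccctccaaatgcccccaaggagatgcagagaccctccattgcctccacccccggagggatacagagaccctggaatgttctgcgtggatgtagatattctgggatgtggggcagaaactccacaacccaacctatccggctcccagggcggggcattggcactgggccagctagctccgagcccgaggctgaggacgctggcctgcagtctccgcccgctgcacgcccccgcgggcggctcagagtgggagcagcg

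Il33 chr19:29924863-29925162 (+ strand): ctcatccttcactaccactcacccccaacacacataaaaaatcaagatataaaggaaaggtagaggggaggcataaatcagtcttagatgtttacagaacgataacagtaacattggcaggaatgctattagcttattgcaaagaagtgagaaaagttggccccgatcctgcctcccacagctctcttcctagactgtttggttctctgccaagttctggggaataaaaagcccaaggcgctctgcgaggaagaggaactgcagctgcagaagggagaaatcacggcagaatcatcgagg

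Il33 chr19:29945540-29945839 (+ strand): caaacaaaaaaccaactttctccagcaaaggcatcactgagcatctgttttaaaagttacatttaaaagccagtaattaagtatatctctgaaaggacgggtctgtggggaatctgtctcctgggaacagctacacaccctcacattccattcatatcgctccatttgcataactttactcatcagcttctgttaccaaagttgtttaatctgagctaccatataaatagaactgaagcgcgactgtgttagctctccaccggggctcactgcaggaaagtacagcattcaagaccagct

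The Il4ra match starts at base 271 of its window and the Il1r1 match at base 19 of its window, which lies at the inner of that gene's 2 starts. The window at the outer start (chr1:40224830-40225129, not printed) held no match to the NF-kappaB consensus. NF-kappaB is a factor activated downstream of IL-1 receptors. The letters TGANTCA (AP-1) and TTCNNNGAA (STAT) were in none of the 4 printed windows on either strand, which says nothing of other positions. The window of Il13ra1, also examined but not printed, held no match to NF-kappaB, AP-1 or STAT. No window was available for Il17ra. Of the 32851 RefSeq windows, 4.51% held the NF-kappaB consensus, 7.81% the AP-1 letters and 8.3% the STAT letters. Of the 76 windows of 62 members, 7.89%, 15.8% and 13.2% held them. No test was made, and a match is a description of the letters.

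Il33 codes for IL-33, a nuclear alarmin of the IL-1 family (chromosome 19, positions 29925114 to 29960718, plus strand, GRCm38). In NeuN- nuclei the 3 kainate libraries held 509, 389 and 224 CPM and the 2 sham libraries 133 and 31.3 CPM. In NeuN+ nuclei the kainate libraries held 7.75, 16.9 and 21.7 CPM and the sham libraries 3.63, 5.05 and 5.48 CPM. The groups did not overlap in either fraction, and the kainate library exceeded its same-numbered sham library in all 3 neuronal and both glial pairs. The log2 fold change was 2.19 ± 0.63 (SE) in glia (edgeR adjusted p = 1.00, unadjusted p = 0.00394) and 1.71 ± 0.54 in neurons (edgeR adjusted p = 1.00, unadjusted p = 0.00717). With the replicate block it rose in both, by 2.38 ± 0.25 in glia (edgeR adjusted p = 4.61e-10) and by 1.65 ± 0.21 in neurons (edgeR adjusted p = 1.18e-07). In the sham mice the gene was at 82.1 ± 71.8 CPM (SD, n = 2) in glia and 4.72 ± 0.971 CPM (SD, n = 3) in neurons. Its receptor chain Il1rl1 was not called in either fraction, with group means between 1.55 ± 1.23 CPM (SD, n = 3) in sham neurons and 5.47 ± 4.39 CPM (SD, n = 2) in sham glia.

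Markers of the cells that make IL-33 went in both directions in glia. With the block, 4 of the 5 oligodendrocyte markers were lower after kainate and 0 higher, and among the 6 astrocyte markers Gfap was higher and 3 were lower. The summed oligodendrocyte markers ranged from 4104 to 25625 CPM in kainate and from 7758 to 36636 CPM in sham NeuN- libraries. In NeuN+ nuclei the summed astrocyte markers were 252 to 410 CPM in kainate libraries and 170 to 234 CPM in sham libraries, without overlap. There 4 of the 6 astrocyte markers were higher and 2 lower with the block, and 1 of the 5 oligodendrocyte markers was lower. The authors measured the purity of the sorted fractions as high but not complete. The part of these cells, or of glial nuclei carried into the NeuN+ fraction, in the neuronal Il33 values was not tested.

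Il4ra codes for the alpha chain shared by the receptors for IL-4 and IL-13 (chromosome 7, positions 125552120 to 125579474, plus strand). The kainate NeuN- libraries held 94.8, 80.4 and 68.6 CPM and the sham NeuN- libraries 32.1 and 16.3 CPM. The kainate NeuN+ libraries held 11.6, 15.0 and 17.4 CPM and the sham NeuN+ libraries 5.17, 6.66 and 4.77 CPM. Kainate and sham were apart in both fractions, and the lowest kainate glia library was above the higher sham one. The log2 fold change was 1.75 ± 0.41 in glia (edgeR adjusted p = 0.476) and 1.41 ± 0.35 in neurons (edgeR adjusted p = 0.404), the values nearest to the threshold in glia and, after Il17ra, in neurons. It rose with the block by 1.82 ± 0.26 in glia (edgeR adjusted p = 2.10e-06) and 1.41 ± 0.22 in neurons (edgeR adjusted p = 1.11e-05). DESeq2 gave adjusted p = 0.0118 and 0.0230. Over the 11 libraries, the members with the pattern most like that of Il4ra were Il33 (Pearson r of log2 CPM 0.98), Il17ra (0.95), and Il1b and Il13ra1 (0.88 each), a description over points that share libraries, depth and the contrast of the fractions. Within the 6 NeuN+ and the 5 NeuN- libraries, r was 0.93 and 0.98 for Il33, 0.98 and 0.89 for Il17ra, 0.29 and 0.84 for Il1b and 0.78 and 0.65 for Il13ra1. The exons of Il4ra overlap those of the antisense gene Gm44876, and whether the counting used strand is not given in the sources used here.

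The ligand of Il4ra moved the other way in glia. Il4, the type 2 cytokine IL-4, had 4.20, 3.05 and 3.62 CPM in kainate and 9.33 and 6.84 CPM in sham NeuN- libraries, without overlap. Its log2 fold change in glia was -1.16 ± 0.42 (edgeR adjusted p = 1.00, unadjusted p = 0.0151), and it fell with the block, with a log2 fold change of -1.03 ± 0.38 (edgeR adjusted p = 0.178). In neurons the kainate libraries held 4.84, 5.91 and 5.90 CPM and the sham libraries 6.85, 4.94 and 5.09 CPM, which overlapped. Il13ra1, the chain that pairs with Il4ra for both ligands, had 11.7, 8.16 and 6.35 CPM in kainate and 4.36, 3.45 and 1.61 CPM in sham NeuN+ libraries. These groups did not overlap, with a log2 fold change of 1.48 ± 0.53 (edgeR adjusted p = 1.00) and a rise of 1.53 ± 0.26 with the block (edgeR adjusted p = 5.56e-05). In NeuN- nuclei Il13ra1 overlapped between kainate (38.8, 19.1 and 13.8 CPM) and sham (25.8 and 8.63 CPM), and it was not called with the block (edgeR adjusted p = 0.446). Il15ra, which presents IL-15, was also higher in neurons with the block, by 0.73 ± 0.23 (edgeR adjusted p = 0.0756), and had 0.69 ± 0.37 without it (edgeR adjusted p = 1.00), although its kainate libraries (29.7, 30.7 and 22.7 CPM) and sham libraries (23.2, 11.4 and 17.0 CPM) overlapped.

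Il17ra codes for the receptor chain used by most IL-17 ligands (chromosome 6, positions 120463247 to 120487559, plus strand). In NeuN+ nuclei it had 35.1, 36.3 and 51.0 CPM in kainate and 11.01, 15.7 and 13.02 CPM in sham libraries. Each kainate library was above the highest sham library there. The log2 fold change was 1.62 ± 0.40 (edgeR adjusted p = 0.387, the smallest of the members in neurons), and with the block the gene rose by 1.61 ± 0.20 (edgeR adjusted p = 5.79e-08). In NeuN- nuclei it had 123, 103 and 63.3 CPM in kainate and 74.4 and 30.8 CPM in sham libraries, which overlapped, since kainate replicate 3 lay below sham replicate 1. Its log2 fold change there was 0.87 ± 0.45 without the block (edgeR adjusted p = 1.00), and it rose with the block, by 0.88 ± 0.24 (edgeR adjusted p = 0.0248). In the unblocked model without the 4 libraries numbered 1 it was called too, at 1.45 (edgeR adjusted p = 0.196). None of the 6 IL-17 ligands was called in neurons, and Il17d was the single ligand called in glia, as lower.

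**Figure D2:**
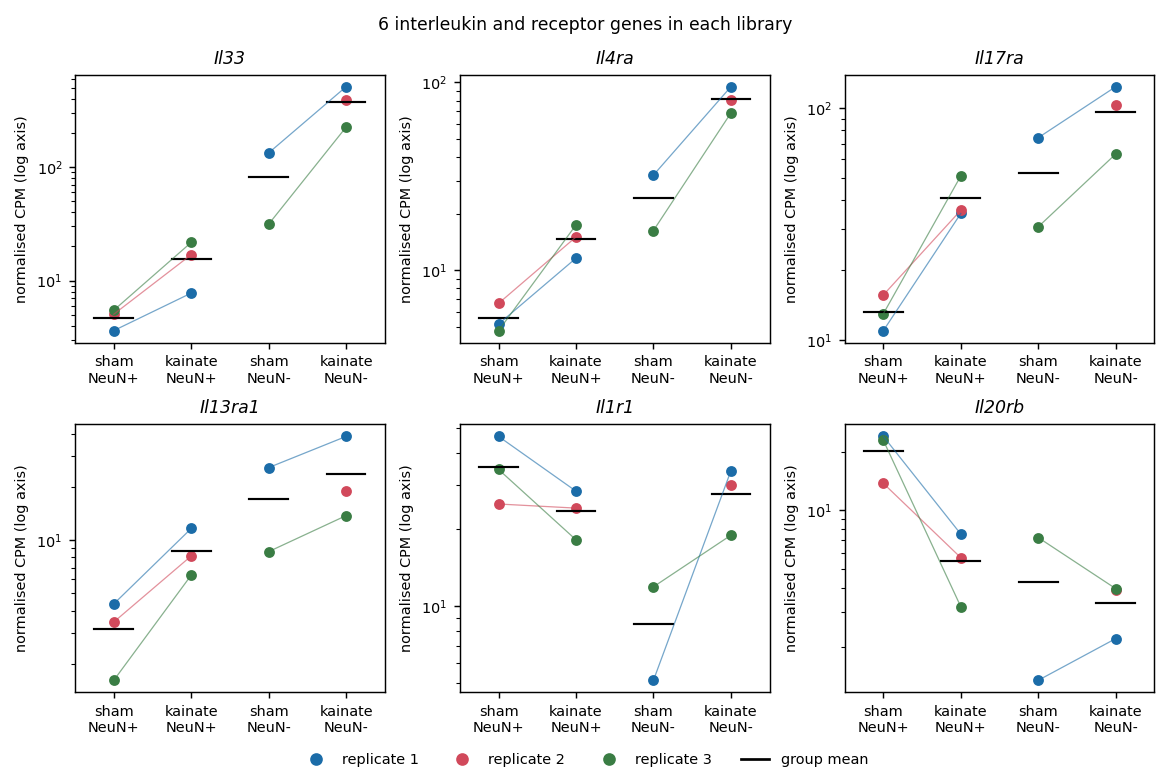
Normalised CPM (vertical log axis, scaled separately in each panel) of 6 members in every library of the 4 groups, with points coloured by replicate number, lines joining same-numbered sham and kainate libraries, and black bars at the group means. Il33 and Il4ra lie higher in each kainate library than in any sham library of the same fraction, and Il20rb lies lower in each kainate NeuN+ library than in any sham one.

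Il1r1 codes for the signalling receptor of IL-1alpha and IL-1beta (chromosome 1, positions 40225080 to 40317257, plus strand). The NeuN- libraries held 33.9, 29.9 and 19.0 CPM after kainate and 5.11 and 11.9 CPM in sham, without overlap. The NeuN+ libraries held 28.2, 24.2 and 18.2 CPM after kainate and 46.3, 25.2 and 34.4 CPM in sham, which overlapped, and the kainate library was the lower of its pair in all 3 pairs. In glia the log2 fold change was 1.69 ± 0.47 (edgeR adjusted p = 1.00, unadjusted p = 0.00301), a rise of 1.65 ± 0.33 with the block (edgeR adjusted p = 0.000631). In neurons it was -0.58 ± 0.40 (edgeR adjusted p = 1.00) and with the block -0.56 ± 0.25 (edgeR adjusted p = 0.394), the member just outside the threshold. Without sham NeuN+ replicate 1 the unblocked neuronal value was -0.34. In glia DESeq2's Wald test also called Il1r1 (adjusted p = 0.0635). The authors, who analysed glia separately from neurons, list Il1r1 as upregulated in contralateral glia at their FDR threshold of 0.25. The endothelial cell markers, which mark cells that carry this receptor, summed to 26.1 to 43.7 CPM in kainate and 21.3 to 45.5 CPM in sham NeuN- libraries, and 0 of the 5 were called by edgeR in glia, with 0 at an unadjusted p below 0.05 with or without the block.

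Il1b, which codes for IL-1beta, was near the low end of detection. It had 7.34, 2.78 and 1.52 CPM in kainate and 1.21 and 0.793 CPM in sham NeuN- libraries, each kainate library above both sham ones. Its log2 fold change there was 1.94 ± 0.89 (edgeR adjusted p = 1.00, unadjusted p = 0.0464) and 1.79 ± 0.64 with the block (edgeR adjusted p = 0.155). These kainate libraries held 117, 82 and 54 counts and the sham ones 19 and 16. Without kainate NeuN- replicate 1, which held the highest value, the unblocked log2 fold change was 1.01. In NeuN+ nuclei Il1b had 0.285, 0.331 and 0.631 CPM in kainate and 0.269, 0.115 and 0.548 CPM in sham libraries, with as few as 4 counts in a library. Il1b was above the olfactory yardstick in 3 of the 11 libraries, and its exons overlap the antisense gene Il1bos. Il1a, which codes for IL-1alpha, had 16.3, 9.37 and 10.4 CPM in kainate and 9.84 and 5.31 CPM in sham NeuN- libraries, which overlapped, and it was not called. Il1rn, the receptor antagonist, was not called in either fraction.

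Il1rap, the accessory chain of the IL-1, IL-33 and IL-36 receptors, went in opposite directions in the fractions with the block. Its NeuN+ libraries held 354, 263 and 164 CPM after kainate and 462, 297 and 349 CPM in sham, and its NeuN- libraries 841, 514 and 291 CPM after kainate and 572 and 148 CPM in sham. All these groups overlapped, and the replicate 1 library was the highest of every group. With the block the gene fell in neurons, with a log2 fold change of -0.55 ± 0.18 (edgeR adjusted p = 0.118), and rose in glia, by 0.76 ± 0.22 (edgeR adjusted p = 0.0484). Without the block and with all libraries the log2 fold changes were -0.51 ± 0.53 in neurons (edgeR adjusted p = 1.00) and 0.61 ± 0.60 in glia (edgeR adjusted p = 1.00). The unblocked neuronal value was -0.79 without kainate NeuN+ replicate 1, -0.26 without kainate NeuN+ replicate 3 and -0.31 without sham NeuN+ replicate 1. The unblocked glial value was 0.026 without kainate NeuN- replicate 1, -0.067 without sham NeuN- replicate 3 and 1.92 without sham NeuN- replicate 1, and it was called without the 4 libraries numbered 1, at 1.46 (edgeR adjusted p = 0.245). Its exons overlap Gm20319.

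The glial values move with the 2 sham NeuN- libraries. Without the block, the log2 fold change of Il33 in glia was 3.61 without sham replicate 1 and 1.49 without sham replicate 3, and that of Il17ra was 1.68 and 0.37. For Il1r1 the order was the reverse, with 1.24 without sham replicate 1 and 2.42 without sham replicate 3. Leaving out a kainate NeuN- library moved other glial values by over 1.5 times, also without the block. Without kainate replicate 1 the value was 0.54 for Il17ra, -2.39 for Il18 and -1.99 for Il17d. Without kainate replicate 3 it was -1.12 for Il16 and 0.14 for Il18rap.

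Il18, the IL-1 family ligand cut by caspase-1, had 63.0, 22.4 and 13.3 CPM in kainate and 141 and 27.8 CPM in sham NeuN- libraries. The highest value belonged to sham replicate 1, made from low RNA input, and the kainate libraries spanned the other sham library. With the block Il18 fell in glia, with a log2 fold change of -1.11 ± 0.26 (edgeR adjusted p = 0.00507), beside -1.36 ± 0.67 without the block (edgeR adjusted p = 1.00, unadjusted p = 0.0621). The unblocked value was 0.27 without sham replicate 1 and -2.11 without sham replicate 3. The 8 microglial markers, which mark cells that make IL-18, summed to 668 to 1909 CPM in kainate and 669 to 3601 CPM in sham NeuN- libraries, with the highest sum in sham replicate 1. With the block, 2 of the 8 were lower and 0 higher in glia. The part of these cells in the Il18 values was not tested. In neurons Il18 was at 6.97, 4.41 and 5.31 CPM after kainate and 7.52, 3.24 and 4.71 CPM in sham and was not called (edgeR adjusted p with the block = 0.995).

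Among members that were lower after kainate in neurons, Il20rb had the largest log2 fold change. It codes for a receptor chain for IL-19, IL-20 and IL-24, and had 7.54, 5.71 and 3.20 CPM in kainate and 23.9, 13.7 and 22.8 CPM in sham NeuN+ libraries (chromosome 9, positions 100457719 to 100486788, minus strand). The groups did not overlap, with a log2 fold change of -1.88 ± 0.56 (edgeR adjusted p = 0.819, unadjusted p = 0.00479) and of -1.90 ± 0.30 with the block (edgeR adjusted p = 1.43e-05). In NeuN- nuclei it had 2.19, 3.90 and 3.96 CPM after kainate and 1.34 and 7.24 CPM in sham, where the groups overlapped and it was not called. Its ligands Il19, Il20 and Il24 had group means of at most 1.49 ± 1.01 CPM (SD, n = 3), that of Il20 in kainate glia, and none was called in either fraction.

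Il16, a ligand of CD4 whose precursor has PDZ domains, had 27.3, 21.8 and 18.8 CPM in kainate and 41.0, 41.1 and 43.9 CPM in sham NeuN+ libraries, and 7.90, 14.0 and 17.6 CPM in kainate and 18.8 and 23.3 CPM in sham NeuN- libraries. Kainate lay below sham without overlap in both fractions. The log2 fold change was -0.89 ± 0.34 in neurons (edgeR adjusted p = 1.00, unadjusted p = 0.0218), and Il16 fell with the block, with -0.91 ± 0.22 in neurons (edgeR adjusted p = 0.00753) and -0.80 ± 0.28 in glia (edgeR adjusted p = 0.131). The glial value without the block was -0.67 ± 0.38 (edgeR adjusted p = 1.00, unadjusted p = 0.0983). Its exons overlap those of Stard5. Il17rd, a receptor-like protein that dampens fibroblast growth factor signalling, had 17.1, 23.1 and 13.5 CPM in kainate and 32.3, 30.8 and 31.3 CPM in sham NeuN+ libraries. These groups were also apart, with a log2 fold change of -0.81 ± 0.35 (edgeR adjusted p = 1.00, unadjusted p = 0.0354) and of -0.84 ± 0.23 with the block (edgeR adjusted p = 0.0220). In NeuN- nuclei Il17rd had 8.53, 14.5 and 14.2 CPM after kainate and 12.4 and 19.5 CPM in sham and was not called.

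Il1rapl1, a synaptic adhesion protein of the IL-1 receptor family, had 58.8, 60.5 and 41.7 CPM in kainate and 97.4, 88.1 and 68.3 CPM in sham NeuN+ libraries. The kainate libraries were all below the sham libraries. It was not called without the block (log2 fold change -0.66 ± 0.34, edgeR adjusted p = 1.00), and with it fell, with -0.66 ± 0.19 in neurons (edgeR adjusted p = 0.0396) and -0.61 ± 0.24 in glia (edgeR adjusted p = 0.233), the member just inside the threshold there. Its NeuN- libraries held 24.7, 19.1 and 17.1 CPM after kainate and 43.1 and 23.0 CPM in sham, which overlapped. The glial value without the block was -0.70 ± 0.38 (edgeR adjusted p = 1.00), at -0.16 without sham replicate 1 and -1.09 without sham replicate 3. The 6 neuronal markers as a list had 1 member higher and 1 lower with the block in neurons, and summed to 2848 to 5925 CPM in kainate and 3260 to 6931 CPM in sham NeuN+ libraries. Il27ra, a receptor chain for IL-27, was the least certain of the 11 calls in neurons, at -0.90 ± 0.33 with the block (edgeR adjusted p = 0.197) and -0.79 ± 0.72 without it (edgeR adjusted p = 1.00), with exons that overlap Palm3. Its unblocked value was -0.45 without kainate NeuN+ replicate 1 and -1.39 without kainate NeuN+ replicate 2.

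In glia the remaining members called as lower with the block were 2 of the IL-17 family. Il17rb, the receptor for IL-25, had 22.0, 26.8 and 12.1 CPM in kainate and 51.3 and 27.6 CPM in sham NeuN- libraries. These did not overlap, although sham replicate 3 lay within 1 CPM of the highest kainate library. The log2 fold change was -0.96 ± 0.42 (edgeR adjusted p = 1.00, unadjusted p = 0.0382) and -1.21 ± 0.29 with the block (edgeR adjusted p = 0.00712). The unblocked value was -0.41 without sham replicate 1 and -1.34 without sham replicate 3. The exons of Il17rb overlap those of Actr8 on the opposite strand. Il17d, a ligand of the IL-17 family, had 10.0, 4.68 and 3.15 CPM in kainate and 20.3 and 8.48 CPM in sham NeuN- libraries, which overlapped, and fell with the block, with a log2 fold change of -1.22 ± 0.31 (edgeR adjusted p = 0.0158). Without the block it was -1.28 ± 0.61 (edgeR adjusted p = 1.00, unadjusted p = 0.0563), at -0.49 without sham replicate 1 and -1.78 without sham replicate 3. Il18rap, the accessory chain of the IL-18 receptor, was called as higher with the block in glia (1.39 ± 0.51, edgeR adjusted p = 0.186), but its NeuN- values overlapped (3.26, 4.48 and 8.12 CPM against 0.575 and 5.11 CPM) and it was above the olfactory yardstick in no library. Without the block its log2 fold change was 0.89 ± 1.22 (edgeR adjusted p = 1.00, unadjusted p = 0.476), at 0.074 without sham replicate 1 and 3.18 without sham replicate 3. Il12rb2, at 1.23 and edgeR adjusted p = 0.294, was the member just outside the threshold in glia.

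By role, the calls with the block are read against the shares of all genes given above (3.19% higher and 1.9% lower in neurons, 2.93% and 2.86% in glia). Of 40 receptor genes tested, 4 were higher and 5 lower in neurons, and 5 were higher and 2 lower in glia. Of 32 ligand genes tested, 1 was higher (Il33) and 1 lower (Il16) in neurons, and 2 were higher (Il33 and Il1b) and 4 lower (Il4, Il16, Il17d and Il18) in glia. The other 4 genes tested, the antagonists Il1rn and Il1f5, the binding protein Il18bp and the enzyme Il4i1, had 0 called by edgeR and 0 at an unadjusted p below 0.05. With the block, 18 of the 76 members were called in at least 1 fraction, where 9.23% of all genes were. In both fractions 6 were called (1.65% of all genes), 5 of them with the same direction in both (1.52%). The remaining 58 were called in neither.

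**Figure D3:**
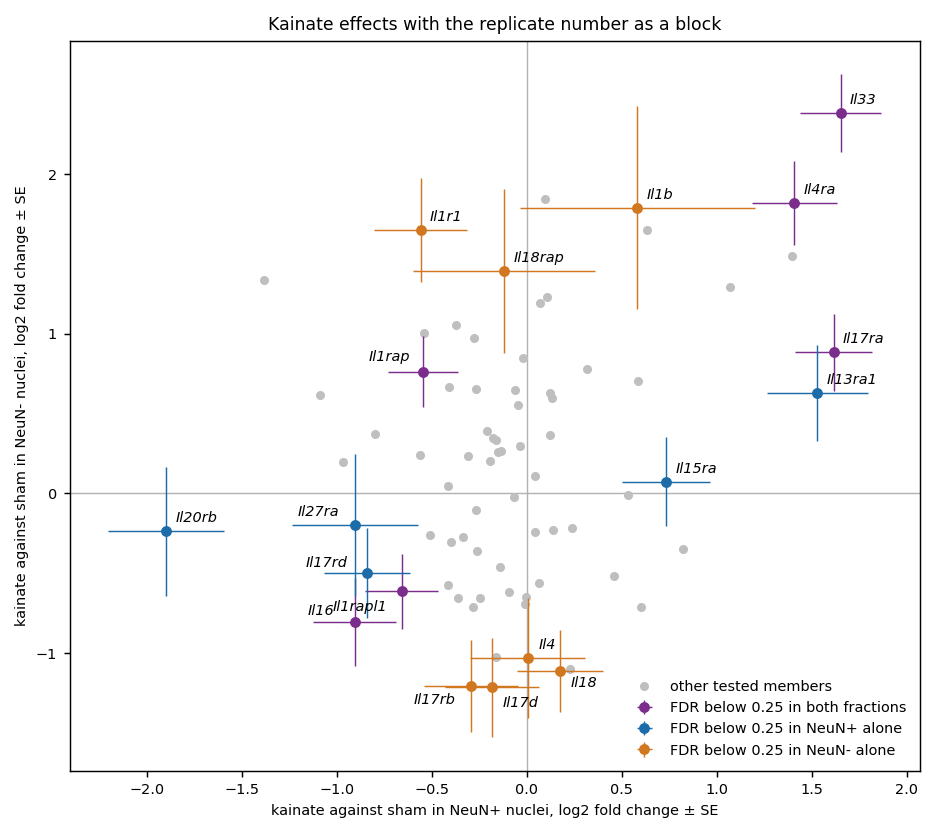
Log2 fold change of kainate against sham in NeuN+ nuclei (horizontal axis) and in NeuN- nuclei (vertical axis) for the tested members, from the model with the replicate number as a block, with SE bars for the 18 members called in at least 1 fraction. Il33, Il4ra and Il17ra lie at the upper right, Il20rb at the far left, and Il1r1 and Il1rap at the upper left.

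The test of the difference between the fractions asked whether kainate acted unequally on neurons and glia. Il1r1 and Il1rap were lower after kainate in neurons relative to glia, and so was Il20rb, while Il18 had the opposite sign. By edgeR without the block, 0 of the 76 members passed, where 0.00246% of all genes did. At an unadjusted p below 0.05 the count was 1 (0.909% of all genes), DESeq2 called 1 (0.0761%), and the block called 4 (1.94%). When the pool, which was sorted into both fractions, was the block instead, no member was called. For Il1r1, the log2 effect in neurons minus that in glia was -2.28 ± 0.61 (edgeR adjusted p = 1.00, unadjusted p = 0.00233) and -2.21 ± 0.41 with the block (edgeR adjusted p = 0.000881), and DESeq2 gave adjusted p = 0.223. For the others, the blocked values were -1.31 ± 0.29 for Il1rap (edgeR adjusted p = 0.00894), -1.66 ± 0.50 for Il20rb (edgeR adjusted p = 0.128) and 1.29 ± 0.34 for Il18 (edgeR adjusted p = 0.0505). Without the block these 3 differences moved with the sham NeuN- libraries. The Il20rb difference was -0.80 without sham NeuN- replicate 1 and -3.19 without sham NeuN- replicate 3. That of Il1rap was -2.42 and -0.44, and that of Il18 was -0.16, with the sign turned, and 2.22. Without kainate NeuN- replicate 1 they were -0.59 for Il1rap and 2.47 for Il18. For Il33, Il4ra and Il17ra no difference was called, with blocked values of -0.73 ± 0.32, -0.41 ± 0.34 and 0.73 ± 0.31, which does not show that the effects were equal.

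The comparison of the fractions asked in which nuclei each gene was found, over both treatments. Of the 76 members, 32 (42.1%) were lower in NeuN+ than in NeuN- nuclei at an adjusted p below 0.25, against 20.4% of all genes, and 11 (14.5%) were higher, against 16.8%. With the replicate block 43 were lower, against 30.9% of all genes, and 13 higher, against 26.5%. Without the block, the median log2 difference was -1.04 over the members and -0.47 over all genes. Receptors were lower in NeuN+ nuclei in 17 of 40 cases and higher in 8, and ligands lower in 14 of 32 and higher in 2 (Il34 and Il16). Low genes that lie near the olfactory yardstick count among those lower in NeuN+ nuclei, for example Il22ra2, the member just inside the threshold (edgeR adjusted p = 0.243), while Il2ra was just outside it.

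Il33 and Il1a differed most, by -4.35 ± 0.43 (edgeR adjusted p = 3.30e-05) and -4.37 ± 0.47 (edgeR adjusted p = 3.68e-05) on the log2 scale of NeuN+ against NeuN-. Il1a had 0.213, 0.229 and 0.991 CPM in kainate and 0.269, 0.459 and 0.548 CPM in sham NeuN+ libraries, below every NeuN- library. Il18 differed by -3.30 ± 0.48 (edgeR adjusted p = 0.000226) and Il4ra by -2.29 ± 0.26 (edgeR adjusted p = 4.42e-05). Il17rb, with 4.55, 4.97 and 5.13 CPM in kainate and 4.499, 6.52 and 7.06 CPM in sham NeuN+ libraries, differed by -2.38 ± 0.29 (edgeR adjusted p = 6.43e-05). Il10rb, the shared chain of the receptors for IL-10, IL-22 and interferon lambda, had 20.8, 18.6 and 12.7 CPM in kainate NeuN-, 30.5 and 12.6 CPM in sham NeuN-, 2.49, 4.77 and 3.87 CPM in kainate NeuN+ and 5.57, 4.13 and 4.48 CPM in sham NeuN+ libraries. The fractions did not overlap for these genes, apart from Il4ra, where kainate NeuN+ replicate 3 lay above sham NeuN- replicate 3, and Il10rb differed by -2.20 ± 0.31 (edgeR adjusted p = 0.000178), with exons that overlap Gm21970 on the same strand. Il10ra, the ligand-binding chain for IL-10, and Il21r, the receptor for IL-21, were lower in NeuN+ nuclei, with log2 fold changes of -4.00 and -3.18.

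Il1rapl2 and Il1rapl1, the synaptic members of the IL-1 receptor family, were both higher in neurons, Il1rapl2 with the largest log2 difference of the 11 genes and Il1rapl1 with a smaller one than Il34, Il20rb and Il3ra. Il1rapl2 had 10.2, 11.2 and 6.08 CPM in kainate and 13.6, 13.3 and 11.2 CPM in sham NeuN+ libraries, against 0.690, 1.49 and 2.87 CPM and 0.959 and 3.17 CPM in NeuN- libraries. It differed by 2.51 ± 0.44 (edgeR adjusted p = 0.000871) and Il1rapl1 by 1.38 ± 0.27 (edgeR adjusted p = 0.00187). Neither gene overlapped between the fractions, apart from Il1rapl1 in sham NeuN- replicate 1, which lay above kainate NeuN+ replicate 3. Il34, the neuronal ligand of Csf1r, had 54.4, 35.5 and 17.0 CPM in kainate and 84.9, 23.6 and 37.5 CPM in sham NeuN+ libraries, and 11.3, 10.3 and 8.15 CPM and 15.8 and 8.83 CPM in the NeuN- ones. It differed by 1.91 ± 0.40 (edgeR adjusted p = 0.00331), and neither fraction was called for kainate. Il18bp, a secreted protein that binds IL-18, had 26.7, 23.0 and 25.6 CPM and 23.6, 20.5 and 25.1 CPM in kainate and sham NeuN+ libraries and 10.3, 9.91 and 14.8 CPM and 9.90 and 9.42 CPM in the NeuN- ones. All NeuN+ libraries lay above all NeuN- libraries, with a difference of 1.18 ± 0.24 (edgeR adjusted p = 0.00249), and its exons overlap Numa1. Il20rb (1.46 ± 0.43) and Il16 (0.89 ± 0.26) were also higher in NeuN+ nuclei (edgeR adjusted p = 0.0285 and 0.0302), as were Il3ra, Il1r1, Il17rd, Il11ra1 and its near-identical copy Il11ra2. Reads that fit both copies equally were not counted, since only reads with 1 mapping position were used. For Il1r1 the contrast averages both treatments (0.91 ± 0.30, edgeR adjusted p = 0.0547): in sham the mean was higher in NeuN+ (35.3 ± 10.6 CPM, SD, n = 3) than in NeuN- nuclei (8.51 ± 4.80 CPM, SD, n = 2), while after kainate it was 23.6 ± 5.06 and 27.6 ± 7.74 CPM (SD, n = 3 each). Il17d, at 20.99, 13.5 and 7.39 CPM in kainate and 26.1, 13.1 and 9.06 CPM in sham NeuN+ libraries, and Il1rap were not called between the fractions without the block. With it they were, Il17d as higher in NeuN+ nuclei (0.76 ± 0.20, edgeR adjusted p = 0.00185) and Il1rap as lower (-0.35 ± 0.14, edgeR adjusted p = 0.0496).

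**Figure D4:**
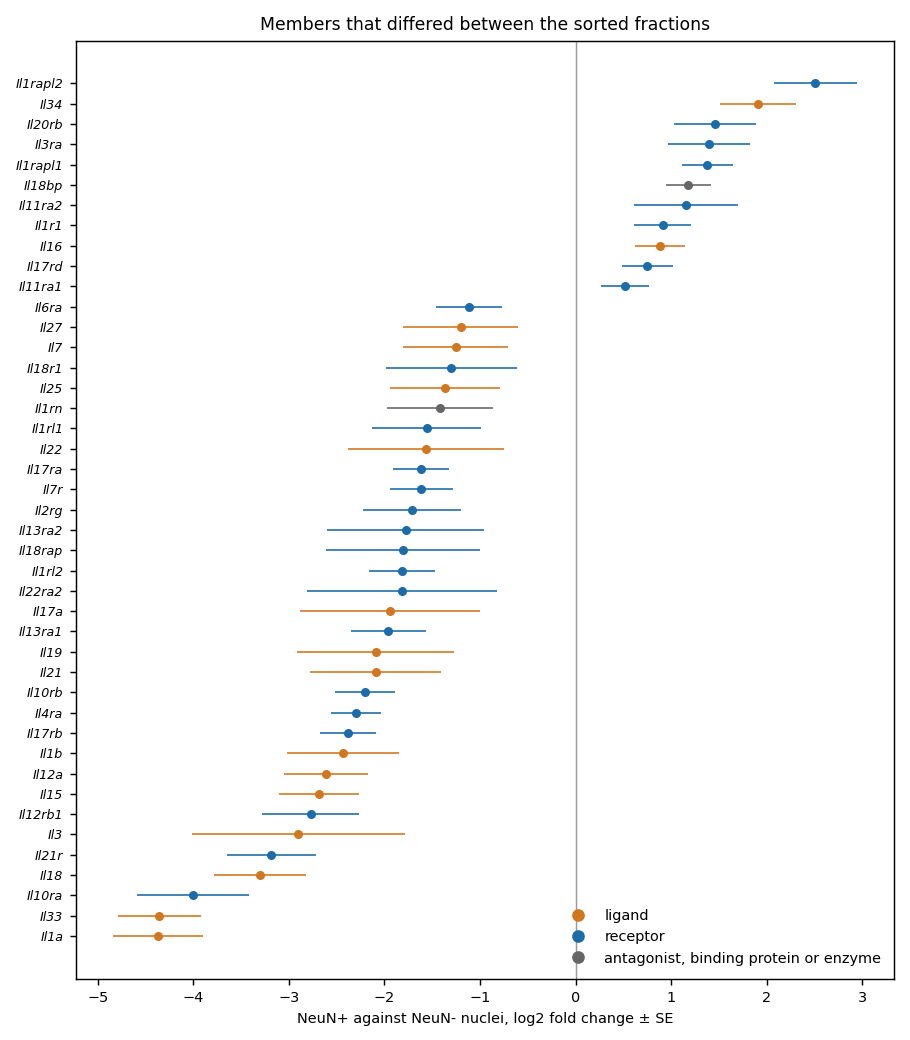
Log2 fold change of NeuN+ against NeuN- nuclei with SE (horizontal axis) for the 43 members called at an adjusted p below 0.25, ordered by size and coloured by role (ligand, receptor, or antagonist, binding protein or enzyme). The 11 members to the right of 0 were higher in NeuN+ nuclei, led by Il1rapl2, and the 32 to the left were lower, with Il33 and Il1a at the far end.

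The signalling genes downstream were taken as a list of 28 kinases, adaptors, partner receptors and Stat factors. With the block, 4 were higher and 1 lower in neurons (3.19% and 1.9% of all genes), and 3 were higher and 0 lower in glia (2.93% and 2.86%), where without the block edgeR called 0 in either fraction, with 3 in neurons and 2 in glia at an unadjusted p below 0.05. Stat3, which acts downstream of the IL-6, IL-10 and IL-21 receptors, was at 384 ± 184 CPM (SD, n = 3) in kainate and 118 ± 80.6 CPM (SD, n = 2) in sham glia, and rose with the block by 1.72 ± 0.24 in glia (edgeR adjusted p = 7.58e-07) and 1.51 ± 0.19 in neurons (edgeR adjusted p = 1.08e-07). Jak3, the kinase of the common gamma chain, rose by 1.17 ± 0.28 in glia (edgeR adjusted p = 0.00815) and 0.92 ± 0.23 in neurons (edgeR adjusted p = 0.0121). Csf2rb, the beta common chain, rose in glia by 1.02 ± 0.31 (edgeR adjusted p = 0.0566). In neurons Csf1r, the receptor for IL-34, rose by 1.12 ± 0.19 (edgeR adjusted p = 3.36e-05), the kinase Irak4 rose by 0.77 ± 0.29 (edgeR adjusted p = 0.230) and the kinase Tyk2 fell, with -0.59 ± 0.18 (edgeR adjusted p = 0.0716). Without the block the log2 fold changes were 1.70 ± 0.59 and 1.39 ± 0.50 for Stat3 and 1.203 ± 0.36 and 0.92 ± 0.32 for Jak3 in glia and neurons, 1.07 ± 0.58 for Csf2rb in glia and 1.14 ± 0.51 for Csf1r, 0.77 ± 0.50 for Irak4 and -0.58 ± 0.32 for Tyk2 in neurons. Csf1r is itself a microglial marker, the only 1 of the 8 called as higher in neurons with the block, where P2ry12 was lower (-0.63 ± 0.24, edgeR adjusted p = 0.216). The 7 microglial markers without Csf1r summed to 45.2 to 55.0 CPM in kainate and 34.1 to 61.8 CPM in sham NeuN+ libraries, which overlapped. Stat6, the factor downstream of Il4ra, and Myd88 were called in neither fraction. T cell markers summed to at most 14.6 CPM and those of neutrophils and monocytes to at most 12.9 CPM in any library, and 0 of those tested were called for kainate by edgeR with or without the block, nor did any reach an unadjusted p below 0.05.

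The other 59 members, with group means from 0 to 56.9 CPM, are covered by the counts above. The beta common ligands and receptors, the IL-6 and IL-12 family ligands and the IL-10 family ligands had 0 members called by edgeR for kainate in either fraction with or without the block, and 0 at an unadjusted p below 0.05.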

How the data were processed

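The values used are the raw read counts per gene that the authors deposited for 11 mRNA libraries. They trimmed reads with Trim Galore 0.4.3, used Rsubread for alignment and featureCounts for reads with 1 mapping position, on GENCODE M16 (mm10). The 11 bisulfite samples were not analysed here. Symbols, biotypes, positions and exon lengths came from GENCODE M21 (GRCm38) by gene ID, and 53274 of 53379 IDs matched. Genes were filtered with filterByExpr (minimum count 10, minimum total 15), scaled by TMM and fitted to 4 group means with edgeR 4.0.16 (glmQLFit, legacy=TRUE, R 4.3.3). P-values were adjusted by Benjamini-Hochberg over 40714 genes, with a threshold of 0.25. DESeq2 1.42.0 was an alternative, and the scripts were tested on simulated data.

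Same-numbered kainate and sham libraries deviated together: r was 0.64, 0.16 and 0.49 in NeuN+ and 0.76 and 0.79 in NeuN- pairs, where the 2 sham libraries mirror each other by construction. Differently numbered NeuN+ pairs ranged from -0.60 to 0.42, and kainate replicate 2 was as close to sham replicate 3 (0.17) as to sham replicate 2. All same-numbered pairs were over 0.1, so the number was used as a block in a second fit, given beside the fit without it where it changes a call. The labels do not say what the numbers share. The methods name different sequencing instruments and pools of unequal size, without saying which libraries they belong to. Members with an unadjusted p below 0.05 for kainate or the difference, Il4ra and Il1r1, the 6 with the smallest p each way between fractions and the 5 highest per kilobase are given in every library. Naming Il15ra, Il18rap and Il27ra followed from seeing their values. The members and lists were chosen with earlier results of these data known. The labels' protocol names right hippocampi, and the titles and methods left ones.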

Additional observations from a re-analysis of the deposited data

Results flagged for a closer look

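The kainate effect differed between NeuN+ and NeuN- nuclei for 4 members, by edgeR's test of the difference itself with the replicate number as a block and an adjusted p below 0.25. The log2 effect in NeuN+ minus that in NeuN- was -2.21 for Il1r1, -1.31 for Il1rap, 1.29 for Il18 and -1.66 for Il20rb. By edgeR without the block, or with the pool as the block, none of the 4 passed, while DESeq2's Wald test called Il1r1 (adjusted p = 0.223). The samples of a group numbered 2 or 3, too few for a test of single libraries that stand apart.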

How the results depend on the processing

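Shares in parentheses are those of all genes tested in the same fit. In neurons 0 members were called (0.165%), against 4 with DESeq2's Wald test (0.884%), 2 with a filter of 1 CPM in 3 libraries (0.468%), 11 with the replicate block (5.09%), 5 in a fit of neurons alone (1.29%), and, chosen after seeing the data, 6 without the 4 libraries numbered 1 (2.28%) and 2 with protein-coding genes only (1.17%). Leaving out 1 library gave 0 to 3, with 2 without kainate NeuN- replicate 3 (0.293%), 3 without sham NeuN- replicate 1 (0.38%) and 3 without sham NeuN- replicate 3 (0.413%). In glia 0 were called (0.101%), against 4 with DESeq2 (0.624%), 1 with the CPM filter (0.229%), 13 with the replicate block (5.79%), 4 without the libraries numbered 1 (1.08%) and 1 with protein-coding genes only (0.802%). Leaving out 1 library gave 0 to 8, with 8 without sham NeuN- replicate 3 (6.59%). The difference had 0 (0.00246%), against 1 with DESeq2 (0.0761%), 4 with the replicate block within each fraction (1.94%) and 0 with the pool as the replicate block (0.0221%). Between the fractions 43 were called (37.2%), 56 with the replicate block within each fraction (57.4%), 60 with the pool as the replicate block (59.7%), and 25 at FDR below 0.05 (17.2%), 25 with sham libraries alone (16.7%) and 25 with kainate libraries alone (20.7%) in the contrast. The cause of these changes was not tested. DESeq2's size factors, no filter, edgeR's newer method, low input as a covariate and the fit without both low-input libraries left 0 called for kainate and the difference.

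Of 638 values of 29 member results, 633 kept their direction. Il18 in glia turned to 0.48 without both low-input libraries and 0.27 without sham NeuN- replicate 1, its difference to -0.37 and -0.16, and Il1rap in glia to -0.067 without sham NeuN- replicate 3. With each library left out in turn, these ranged from -2.39 to 0.27, from -0.16 to 2.47 and from -0.067 to 1.92. Where 1 sham NeuN- library was left, it was assumed to vary like the other groups. A length column of the authors was not used here, so that alternative for levels per kilobase was not run. With 2 or 3 pools a group, the number of pools limits the precision.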
